A study of Mus musculus with 9 samples.

Results

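The genes described here are 9 mouse genes of cardiac excitation and cell-to-cell conduction: the sodium channel genes Scn4b and Scn7a, the pacemaker channel genes Hcn2 and Hcn4, the T-type calcium channel genes Cacna1g and Cacna1h, and the connexin genes Gja1, Gja5 and Gjc1. They were chosen by symbol from the 53465 genes counted in each library, and all 9 passed the filter on low counts that left 13825 genes for testing. RNA was sequenced from heart tissue of NOD-SCID mice, an immunodeficient strain whose scid mutation leaves animals without functional T and B cells, in 3 groups of 3 libraries each. The tissue label of all 9 libraries names the infarct border zone, although the sham hearts were not ligated. The sham group had surgery without ligation, the ligation group had a coronary artery tied off, and the implanted group had the same ligation and also received FOXO3-GE-MPCs, cells named for the transcription factor FOXO3 whose remaining abbreviations the labels do not spell out. For implanted libraries 2 and 3 one label field names FOXO4 and FOXO5 in place of FOXO3, and the title and treatment fields, which name FOXO3 for all 3, were followed. No age, sex, time after surgery, number of hearts per library or species of the implanted cells is given in the sources used here, so p-values measure the spread between libraries, which may be partly technical.

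Voltage-gated sodium channels carry the fast inward current that starts the action potential of working heart muscle. Hyperpolarization-activated channels of the Hcn family carry the pacemaker current, and T-type calcium channels open at low voltage and contribute to pacemaking in nodal tissue. Connexins form gap junctions, through which current passes from 1 cell to the next: Gja1 is the main connexin of ventricular muscle, Gja5 is found in atrial muscle, the His-Purkinje system and arterial endothelium, and Gjc1 is found in nodal tissue and in the embryonic heart.

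Libraries held between 4549268 (ligation 1) and 7515052 (ligation 3) counts assigned to genes, so that 3 counts corresponded to between 0.375 and 0.639 CPM (the count on the usual scale of a fixed library size, scaled between libraries by the trimmed mean of M values, TMM). The presence of heart muscle was checked with 8 cardiomyocyte marker genes, all detected in every group. Their summed level ranged from 33914 to 35104 CPM in sham, 28300 to 29529 CPM in ligation and 26816 to 27722 CPM in implanted hearts. These markers cannot tell which zone or chamber was sampled, so that part of the tissue label was not checked. Genes encoded by the mitochondrial genome took 19.1 to 19.9% of counts in sham, 12.5 to 13.9% in ligation and 14.3% in implanted hearts. The closing lines of the count files of sham 1 and 2 carry 1 library name between them, as do those of ligation 2 and 3, although their counts differ by more than sampling noise. In bulk tissue, fewer cells of a type and less RNA per cell cannot be told apart.

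After ligation, 7 of the 9 genes changed against sham by edgeR's quasi-likelihood test at an adjusted p under 0.05. Hcn2, Gja1, Gja5 and Gjc1 were higher, and Hcn4, Cacna1g and Cacna1h were lower. Over all genes tested, 38.2% passed the same threshold in this comparison, 20.1% higher and 18.0% lower. In implanted against ligated hearts 3 of the 9 passed, Scn4b and Gja1 higher and Hcn2 lower, where 9.87% of all genes did so (4.19% higher and 5.69% lower). In implanted hearts against sham 4 of the 9 passed, Scn4b, Gja1 and Gja5 higher and Cacna1h lower, where 40.9% of all genes did so (21.0% higher and 20.0% lower). The median log2 fold change of the 9 genes in these comparisons was 0.02, 0.24 and 0.09, and that of all genes tested 0.008, 0.002 and -0.007. The CPM ranges of the 2 groups did not overlap for 5, 7 and 4 of the 9 genes, and for 47.6%, 27.2% and 49.8% of all genes. The 3 comparisons share libraries, so their values are set side by side and do not count as separate evidence.

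**Figure D1:**
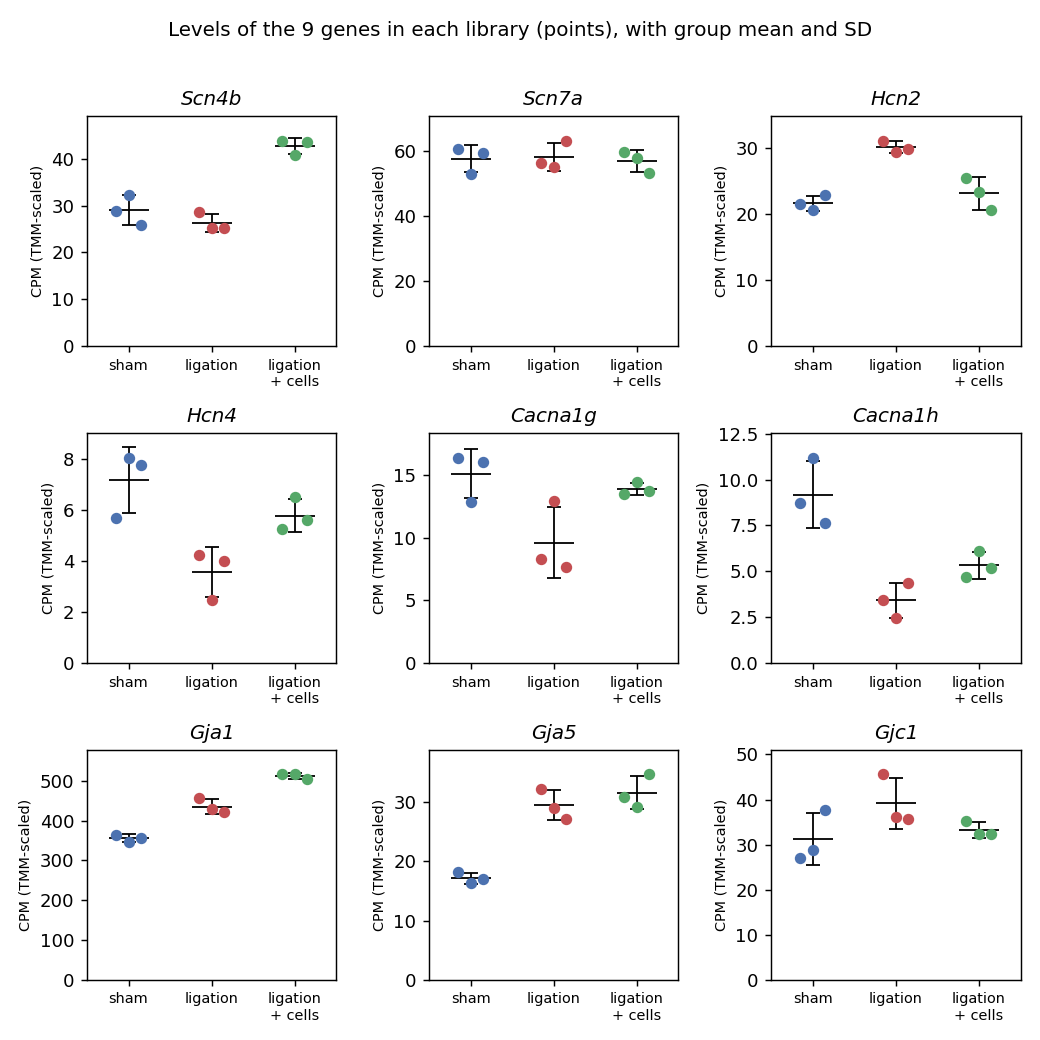
Level of each of the 9 genes in CPM (vertical axes, linear from 0, 1 panel per gene) in the 3 libraries of each group. Points are libraries and horizontal bars are group means with SD. Scn4b is highest in the implanted group, Gja1 rises from sham through ligation to implanted, and Hcn4 and Cacna1h are lowest in the ligation group.

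**Figure D2:**
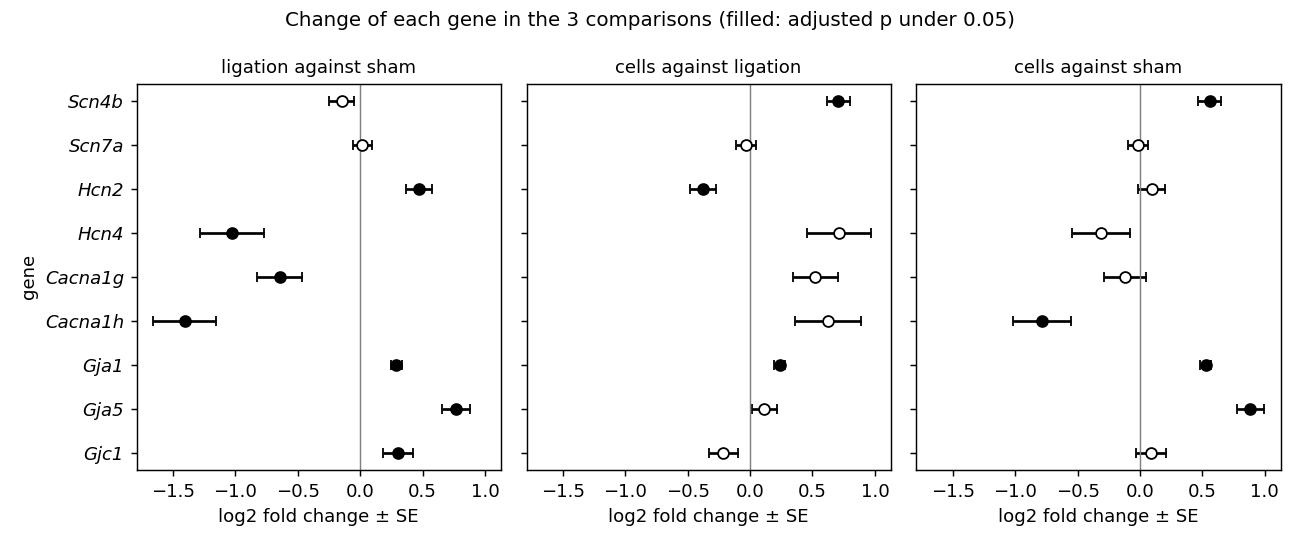
Log2 fold change of each gene with its standard error in the 3 comparisons, from 1 edgeR model over the 9 libraries, with filled points for an adjusted p under 0.05. The largest falls are those of Cacna1h (-1.41) and Hcn4 (-1.03) in ligation against sham, and the largest rise is that of Gja5 in implanted hearts against sham (0.88).

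Among the sodium channel genes, Scn4b was higher in implanted hearts than in either other group. Scn4b (ENSMUSG00000046480, GRCm38 chr9:45138395-45154152, plus strand) encodes a beta subunit that is linked to the pore-forming subunit and modulates its gating. It stood at 28.8, 32.3 and 25.9 CPM in sham libraries 1 to 3, at 28.6, 25.2 and 25.2 CPM in ligation and at 43.8, 40.8 and 43.5 CPM in implanted hearts. All 3 implanted libraries lay above all 6 others, while the sham and ligation ranges overlapped. Scn4b rose by 0.71 on the log2 scale against ligation (SE 0.095, 1.63-fold, edgeR adjusted p = 3.13e-05) and by 0.56 against sham (SE 0.094, 1.47-fold, edgeR adjusted p = 7.24e-05). In ligation against sham its log2 fold change was -0.15 (SE 0.101, 95% interval -0.36 to 0.06, edgeR adjusted p = 0.27), and 0.04 when libraries were scaled by their totals alone.

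Markers of atrial muscle moved with Scn4b in implanted hearts. Of the 5 atrial marker genes, none at 0 throughout, 3 were higher and 1 was lower in implanted than in ligated hearts, and their summed level ranged from 474 to 565 CPM in sham, 845 to 1611 CPM in ligation and 1569 to 2179 CPM in implanted hearts. The atrial myosin light chain gene Myl7 stood at 157 ± 5.54 CPM in sham, 98.8 ± 9.67 CPM in ligation and 299 ± 14.8 CPM in implanted hearts (SD, n = 3). Myl4, the other atrial light chain gene, followed the same order at 198 ± 15.4, 144 ± 14.1 and 498 ± 7.00 CPM, and Sln, which encodes the calcium pump regulator sarcolipin, at 66.1 ± 4.72, 55.4 ± 1.16 and 193 ± 20.6 CPM. The log2 rises of Myl7, Myl4 and Sln from ligation to implanted hearts were 1.60, 1.79 and 1.80. Nppa and Bmp10 behaved otherwise, both higher in ligation than in sham: Nppa, the natriuretic peptide gene that failing ventricle also expresses, was at 106.8 ± 34.4 CPM in sham, 894.9 ± 369 CPM in ligation and 792 ± 359 CPM in implanted hearts. Bmp10 was the marker that fell from ligation to implanted hearts, at 3.96 ± 0.907 and 0.751 ± 0.311 CPM. The part of atrial tissue in the levels of Scn4b and of the other genes described here was not tested.

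**Figure D3:**
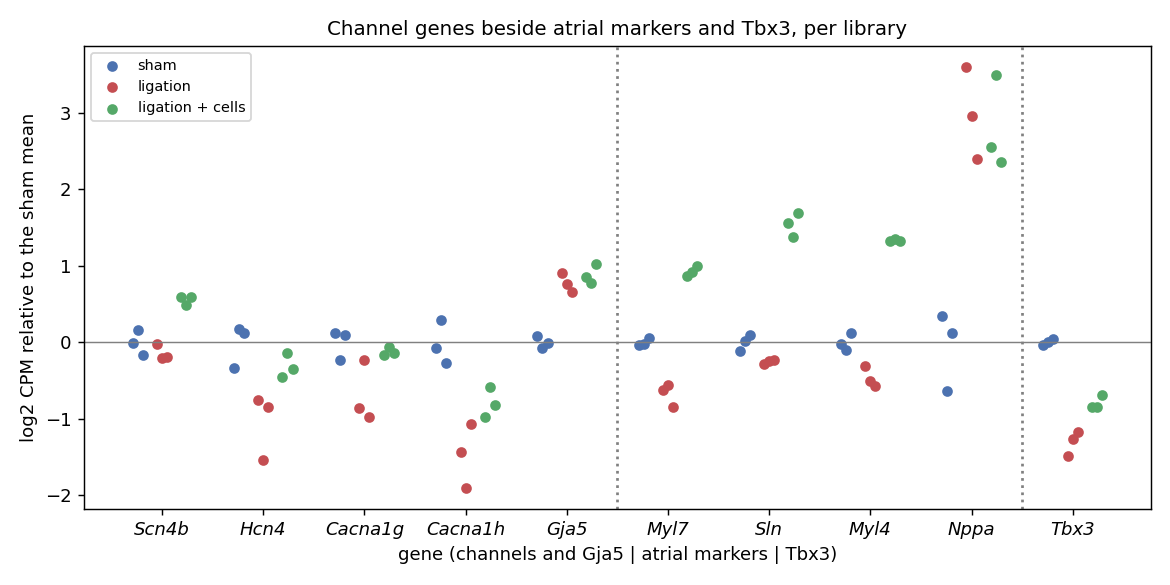
Levels of Scn4b, Hcn4, Cacna1g, Cacna1h, Gja5, 4 of the 5 atrial markers and Tbx3 (horizontal axis) in the 9 libraries, as log2 CPM relative to the sham mean (vertical axis). Points are libraries, coloured by group. Myl7, Sln and Myl4 lie below sham in ligation and above it in implanted hearts, Nppa lies above sham in both, and Bmp10, which has no count in sham 1, is not drawn, and the implanted libraries of Scn4b lie above those of sham.

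Scn7a passed the test in no comparison. It (ENSMUSG00000034810, GRCm38 chr2:66673425-66784914, minus strand) encodes an atypical sodium channel that senses extracellular sodium and is known from glia and peripheral nerve. Its level was 60.9, 53.0 and 59.4 CPM in sham, 56.5, 55.1 and 63.3 CPM in ligation and 59.9, 58.0 and 53.4 CPM in implanted hearts, with all 3 ranges overlapping. The log2 fold changes were 0.02 in ligation against sham (95% interval -0.15 to 0.18), -0.03 in implanted against ligated hearts (-0.20 to 0.13) and -0.02 in implanted hearts against sham (-0.18 to 0.15). The edgeR adjusted p-values were 0.881, 0.846 and 0.89, and each interval holds changes of either sign. With libraries scaled by their totals alone, which moves the median gene by 0.19 on the log2 scale, Scn7a was 0.21 higher in ligation than in sham (edgeR adjusted p = 0.0412). Schwann cell markers, genes of the glia of peripheral nerve, summed to 28.1 to 35.1 CPM in sham, 39.9 to 49.4 CPM in ligation and 75.9 to 87.9 CPM in implanted hearts, and 2, 1 and 3 of the 6 were higher in the 3 comparisons in the order just used. Their part in the level of Scn7a was not tested.

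Of 13 other sodium channel subunit genes, 9 were tested. In ligation against sham 2 rose and none fell, where 38.2% of all genes tested passed. In implanted hearts against sham 2 rose and 1 fell, where 40.9% of all genes passed. In implanted against ligated hearts none of the 9 passed by edgeR, DESeq2 or limma-voom, and 1 had an unadjusted p under 0.05 in each, Scn10a, named here after its value was seen. Scn4a, the skeletal muscle sodium channel, was lower in implanted hearts (5.25 ± 1.57 CPM) than in sham (8.25 ± 0.715 CPM), by a log2 fold change of -0.65 (SE 0.223, edgeR adjusted p = 0.0243).

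Of 12 genes for partners of sodium channels, 11 were tested. In ligation against sham 3 rose and 1 fell, in implanted against ligated hearts 4 rose and none fell, and in implanted hearts against sham 5 rose and 2 fell, with median log2 fold changes of 0.10, 0.11 and 0.38. Over all genes tested, 38.2%, 9.87% and 40.9% passed in these 3 comparisons. Ank3, whose product ankyrin-G anchors sodium channels in the membrane, rose from 46.9 ± 8.92 CPM in sham to 71.1 ± 1.18 CPM in ligation. Cav3, which encodes the muscle caveolin, fell from 79.7 ± 3.34 to 58.5 ± 3.23 CPM. Fgf12, an intracellular fibroblast growth factor that binds sodium channel tails, was at 2.98 ± 0.723 CPM in sham, 3.25 ± 0.839 CPM in ligation and 10.6 ± 1.59 CPM in implanted hearts, a log2 rise of 1.74 over ligation (SE 0.245, edgeR adjusted p = 5.31e-05).

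The 2 pacemaker channel genes moved in opposite directions after ligation. Hcn2 (ENSMUSG00000020331, GRCm38 chr10:79716634-79736108, plus strand) was 1.39-fold higher and Hcn4 (ENSMUSG00000032338, GRCm38 chr9:58823412-58863175, plus strand) was 2.04-fold lower. Hcn4 is the principal pacemaker channel of the sinoatrial node, and Hcn2 is the family member more widespread in working muscle. The 250 bases upstream of each RefSeq start site are shown because the pair share a channel family and moved apart, with capitals marking matches to the motifs spelled out below them. They lie at GRCm38 chr10:79716384-79716633 for Hcn2 and chr9:58822699-58822948 for Hcn4, both on the plus strand.
Hcn2: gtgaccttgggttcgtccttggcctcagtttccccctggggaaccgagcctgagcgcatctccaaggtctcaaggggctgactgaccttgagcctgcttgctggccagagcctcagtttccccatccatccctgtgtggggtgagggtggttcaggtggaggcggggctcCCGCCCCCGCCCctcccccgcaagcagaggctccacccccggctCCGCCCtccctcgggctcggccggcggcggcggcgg
Hcn4: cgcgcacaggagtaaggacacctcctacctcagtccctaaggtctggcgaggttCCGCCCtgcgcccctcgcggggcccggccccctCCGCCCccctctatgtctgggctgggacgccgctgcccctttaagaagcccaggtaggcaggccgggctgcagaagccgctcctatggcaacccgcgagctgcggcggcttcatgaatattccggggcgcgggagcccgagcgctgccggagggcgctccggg
Both windows are rich in G and C, at 70.4% for Hcn2 and 71.2% for Hcn4, and the capitals mark the GC box GGGCGG read on the opposite strand. Hcn2 has 3 matches, beginning 80, 74 and 36 bases before the start, and Hcn4 has 2, beginning 196 and 163 bases before it. A GC box on either strand is found in 32.7% of the 32851 RefSeq promoter windows of this length. Neither window holds a match to the other motifs, all searched on both strands. These were the TATA box, spelled TATAAA and found in 12.4% of all windows, and the GATA motif, spelled AGATAA and found in 9.99%. The T-box motif was spelled GGTGTNA and found in 8.61% of windows. The AP-1 motif was spelled TGANTCA, with a share of 6.75%. The FOXO motif was spelled GTAAACA, with a share of 3.17%, and the MEF2 motif was found in 3.20%. No 2 matches overlap, and a match describes the letters only.

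Hcn2 stood at 21.5, 20.6 and 22.9 CPM in sham, at 31.1, 29.4 and 29.9 CPM in ligation and at 25.5, 23.3 and 20.6 CPM in implanted hearts. Every ligation library was above every library of the other groups, and the sham and implanted ranges overlapped. Macrophage markers moved the same way, with 5 of 6 higher in ligation than in sham, all 6 lower in implanted than in ligated hearts, and summed levels of 547 to 596 CPM in sham, 1018 to 1059 CPM in ligation and 417 to 438 CPM in implanted hearts. Their part in the level of Hcn2 was not tested. Hcn2 rose by 0.47 on the log2 scale from sham to ligation (SE 0.106, edgeR adjusted p = 0.00138) and fell by 0.38 from ligation to implanted hearts (SE 0.103, 1.30-fold lower, edgeR adjusted p = 0.0224). The fall had an adjusted p of 0.0741 by DESeq2's Wald test, and in edgeR it missed the threshold without ligation 1 (-0.36, adjusted p = 0.0629), ligation 2 (-0.40, 0.0538), ligation 3 (-0.38, 0.0706), implanted 2 (-0.38, 0.0542) or implanted 3 (-0.30, 0.115). In implanted hearts against sham the log2 fold change was 0.10 (95% interval -0.13 to 0.32, edgeR adjusted p = 0.515).

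Hcn4 was the scarcer of the pair, at 17 to 49 counts per library. Its level was 5.70, 8.07 and 7.78 CPM in sham, 4.26, 2.46 and 4.0 CPM in ligation and 5.25, 6.52 and 5.62 CPM in implanted hearts. The ligation libraries all lay below both other groups, whose ranges overlapped. Hcn4 fell by 1.03 on the log2 scale from sham to ligation (SE 0.256, edgeR adjusted p = 0.0032). From ligation to implanted hearts the log2 fold change was 0.71 (SE 0.258, 95% interval 0.17 to 1.25), which did not pass after adjustment over all genes (edgeR adjusted p = 0.0916), and in implanted hearts against sham it was -0.31 (95% interval -0.80 to 0.18, edgeR adjusted p = 0.306).

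Per kilobase of exon, Hcn4 made up 12.1, 17.0 and 15.1% of the summed level of Hcn2 and Hcn4 in sham, 6.68, 4.19 and 6.54% in ligation and 9.69, 12.7 and 12.5% in implanted hearts. The ligation shares were below those of both other groups, and an exact two-sided permutation test of each gave p = 0.1, the smallest that 3 libraries against 3 allow. Sham and implanted shares overlapped (exact permutation p = 0.3). These 3 tests form a family in which no value could pass 0.05.

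Both T-type calcium channel genes were lower after ligation. Cacna1h (ENSMUSG00000024112, GRCm38 chr17:25374285-25433783, minus strand) had the largest change of the 9 genes, 2.65-fold lower, and Cacna1g (ENSMUSG00000020866, GRCm38 chr11:94408391-94474198, minus strand) was 1.56-fold lower. Each encodes the pore-forming subunit of a T-type channel. Cacna1h stood at 8.72, 11.2 and 7.62 CPM in sham, 3.41, 2.46 and 4.38 CPM in ligation and 4.68, 6.10 and 5.19 CPM in implanted hearts, from 16 to 68 counts per library. The 3 groups did not overlap, with implanted hearts between ligation and sham. Cacna1h fell by 1.41 on the log2 scale from sham to ligation (SE 0.251, edgeR adjusted p = 0.000141) and was lower in implanted hearts than in sham by 0.78 (log2 fold change -0.78, SE 0.231, edgeR adjusted p = 0.01). Without sham 2 the latter was -0.61 with an adjusted p of 0.0701. The step from ligation to implanted hearts was 0.62 (SE 0.265, 95% interval 0.07 to 1.18) and did not pass (edgeR adjusted p = 0.158). Of its exonic bases 1.62% overlap Tpsg1 on the opposite strand, and whether the counting used strand is not given in the sources used here. Markers of vessel cells also fell with ligation: 5 of the 6 tested smooth muscle and pericyte markers were lower than in sham, and their summed level ranged from 1756 to 1809 CPM in sham, 1241 to 1272 CPM in ligation and 1247 to 1276 CPM in implanted hearts. Endothelial markers summed to 2115 to 2215 CPM, 1389 to 1459 CPM and 1530 to 1565 CPM in the same groups. The part of these cells in the levels of the T-type genes and of Hcn4 was not tested.

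Cacna1g stood at 16.4, 12.8 and 16.0 CPM in sham, at 8.31, 12.9 and 7.63 CPM in ligation and at 13.5, 14.4 and 13.7 CPM in implanted hearts. Ligation 2 reached the lowest sham library, so these ranges overlapped, and the 3 implanted libraries lay above all of ligation. Cacna1g fell by 0.64 on the log2 scale from sham to ligation (SE 0.18, edgeR adjusted p = 0.00738), and without ligation 3 the value was -0.49 with an adjusted p of 0.0545. From ligation to implanted hearts the log2 fold change was 0.52 (SE 0.178, 95% interval 0.15 to 0.89, edgeR adjusted p = 0.0701), and without ligation 2 it was 0.81 with an adjusted p of 0.00705. With no filter on low counts its adjusted p was 0.0347. In implanted hearts against sham it was -0.12 (95% interval -0.47 to 0.23, edgeR adjusted p = 0.601), and 0.04 with libraries scaled by their totals alone.

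Cacna1g made up 64.4, 52.5 and 67.0% of the summed T-type level per kilobase in sham, 70.1, 83.5 and 62.7% in ligation and 73.5, 69.5 and 71.8% in implanted hearts. The implanted shares were all above the sham shares (exact two-sided permutation p = 0.1). The ligation shares overlapped those of both other groups (exact permutation p = 0.3 against sham and 0.9 against implanted hearts).

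Of 15 other calcium channel subunit genes 11 were tested, and 4 rose and none fell in ligation against sham, 1 rose in implanted against ligated hearts, and 4 rose and 1 fell in implanted hearts against sham. Their median log2 fold changes were 0.23, 0.002 and 0.41. The shares of all tested genes that passed were 38.2%, 9.87% and 40.9%. Cacna1c, the L-type channel of working muscle, was at 173 ± 0.587 CPM in sham and rose to 203 ± 13.6 CPM in ligation (a log2 rise of 0.23, SE 0.0611, edgeR adjusted p = 0.00508) and stood at 190 ± 13.2 CPM in implanted hearts. Cacnb3, a beta subunit, rose from 8.84 ± 1.67 to 15.8 ± 1.55 CPM after ligation. Cacna2d2, an alpha-2-delta subunit, was at 5.97 ± 0.637 CPM in sham, 7.25 ± 1.86 CPM in ligation and 18.2 ± 1.91 CPM in implanted hearts, a log2 rise of 1.35 over ligation (SE 0.179, edgeR adjusted p = 2.58e-05). Cacna1a, the P/Q-type channel of neurons, was lower in implanted hearts (5.15 ± 0.389 CPM) than in sham (9.72 ± 1.29 CPM), and stood at 6.72 ± 1.32 CPM in ligation, below all sham libraries but not past the threshold (log2 fold change -0.50, edgeR adjusted p = 0.0523).

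Among the connexins, Gja1 was higher after ligation and higher again in implanted hearts, Gja5 was higher in both ligated groups than in sham, and Gjc1 passed the test only for ligation against sham, at the margin. The 250 bases upstream of the RefSeq start sites of Gja1 (GRCm38 chr10:56377050-56377299) and Gja5 (chr3:97032152-97032401), both on the plus strand, are shown to set the 2 connexin genes that changed most clearly beside each other, with motif matches in capitals.
Gja1: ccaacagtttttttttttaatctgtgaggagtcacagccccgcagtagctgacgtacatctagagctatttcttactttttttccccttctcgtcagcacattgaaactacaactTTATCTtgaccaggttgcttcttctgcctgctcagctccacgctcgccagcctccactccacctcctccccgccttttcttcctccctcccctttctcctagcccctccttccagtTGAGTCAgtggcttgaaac
Gja5: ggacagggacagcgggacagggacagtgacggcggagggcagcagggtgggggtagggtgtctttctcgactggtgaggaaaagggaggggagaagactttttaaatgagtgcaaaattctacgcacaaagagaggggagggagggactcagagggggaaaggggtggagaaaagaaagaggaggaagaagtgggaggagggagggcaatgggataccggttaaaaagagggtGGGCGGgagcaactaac
The Gja1 window is 50% G and C and holds a GATA match on the opposite strand, beginning 135 bases before the start, and an AP-1 match on the same strand, 19 bases before it. The Gja5 window is 56.4% G and C and holds 1 GC box, on the same strand, 17 bases before the start, and the mean over all windows is 53.2%. As in the pacemaker genes, neither holds a match to the TATA box, T-box, FOXO or MEF2 motif. RefSeq windows were matched for 6 of the 9 genes, without Gjc1, Cacna1g and Cacna1h. The other matched windows, those of Scn4b and Scn7a, are not shown because they overlap annotated exons.

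Gja1 (ENSMUSG00000050953, GRCm38 chr10:56377330-56402513, plus strand) was the most abundant of the 9 genes. It stood at 365, 346 and 357 CPM in sham, 457, 428 and 421 CPM in ligation and 516, 517 and 505 CPM in implanted hearts. The 3 groups did not overlap. Gja1 rose by 0.29 on the log2 scale from sham to ligation (SE 0.0457, 1.22-fold, edgeR adjusted p = 3.43e-05), by 0.24 from ligation to implanted hearts (SE 0.0452, 1.18-fold, edgeR adjusted p = 0.00142) and by 0.53 from sham to implanted hearts (SE 0.0455, 1.44-fold, edgeR adjusted p = 9.08e-09).

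Gja5 (ENSMUSG00000057123, GRCm38 chr3:96904693-97077416, plus strand) stood at 18.2, 16.3 and 17.0 CPM in sham, 32.2, 29.1 and 27.1 CPM in ligation and 30.9, 29.3 and 34.7 CPM in implanted hearts. All 6 libraries of the ligated groups, with or without implanted cells, lay above sham, and the ranges of those 2 groups overlapped. Gja5 rose by 0.77 on the log2 scale from sham to ligation (SE 0.112, 1.71-fold, edgeR adjusted p = 1.33e-05) and by 0.88 from sham to implanted hearts (SE 0.110, 1.84-fold, edgeR adjusted p = 1.70e-06). From ligation to implanted hearts the log2 fold change was 0.11 (95% interval -0.10 to 0.32, edgeR adjusted p = 0.565). Of the words of 31 bases in its exons 16.6% are shared with other genes, and 2.87% of its exonic bases overlap Gpr89 on the opposite strand, so its level is less certain than those of the other genes, in which at most 2.07% of such words are shared.

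Markers of the other places where Gja5 is found were read beside it. Of 7 arterial endothelial markers 1 was higher and 4 were lower in ligation than in sham, and their summed level ranged from 331 to 354 CPM in sham, 287 to 301 CPM in ligation and 291 to 303 CPM in implanted hearts. All 8 general endothelial markers were lower after ligation. Of the 11 tested conduction system genes, described below, 3 were higher and 1 was lower in ligation than in sham. Among them Cntn2, named here after its value was seen, stood at 5.26 ± 0.919, 7.47 ± 0.479 and 10.7 ± 1.76 CPM in the 3 groups. In ligation Cntn2 lay above all sham libraries but did not pass (log2 fold change 0.50, edgeR adjusted p = 0.0735). Of the 5 atrial markers, Nppa and Bmp10 were higher and Myl7, Sln and Myl4 lower in ligation than in sham, where Gja5 was higher, and the part of these cell types in its level was not tested.

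Gjc1 (ENSMUSG00000034520, GRCm38 chr11:102799579-102819700, minus strand) stood at 27.1, 28.8 and 37.8 CPM in sham, 45.6, 36.2 and 35.6 CPM in ligation and 35.3, 32.3 and 32.3 CPM in implanted hearts. Sham 3 and ligation 1 lay above the other libraries of their groups, and the sham and ligation ranges overlapped. The log2 fold change from sham to ligation was 0.30 (SE 0.118, 1.23-fold, edgeR adjusted p = 0.0491), just inside the threshold. It missed the threshold by DESeq2 (adjusted p = 0.0779) and limma-voom (0.0573), with the replicate number as a block (0.0575), and in edgeR without sham 1 (0.21, adjusted p = 0.21), sham 2 (0.25, 0.171), ligation 1 (0.20, 0.228), implanted 1 (0.30, 0.0517) or implanted 3 (0.31, 0.0539). From ligation to implanted hearts it was -0.22 (95% interval -0.46 to 0.03, edgeR adjusted p = 0.28), although the implanted libraries all lay below the ligation ones, and in implanted hearts against sham it was 0.09 (-0.16 to 0.34, edgeR adjusted p = 0.587).

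Within each library, Gja1 made up most of the summed level of the 3 connexins per kilobase, at 79.0 ± 1.96% in sham, 76.7 ± 1.32% in ligation and 80.4 ± 0.818% in implanted hearts (SD, n = 3). The Gja5 share was 7.16, 6.71 and 6.52% in sham, 9.45, 9.36 and 8.92% in ligation and 8.57, 8.23 and 9.79% in implanted hearts, above sham in all 6 libraries of the ligated groups (exact two-sided permutation p = 0.1 in each comparison with sham). The Gjc1 share was 12.3, 13.6 and 16.7% in sham, 15.4, 13.4 and 13.5% in ligation and 11.2, 10.4 and 10.4% in implanted hearts, where it was below both other groups (exact permutation p = 0.1 for each). The Gja1 share was higher in implanted than in ligated hearts (exact permutation p = 0.1). In this family of 9 tests no p could be smaller than 0.1. Other connexins did not enter these shares. Gja4 was at 19.9, 24.7 and 21.3 CPM per kilobase in sham, ligation and implanted hearts, and Gja3 at 5.83, 5.78 and 5.90.

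**Figure D4:**
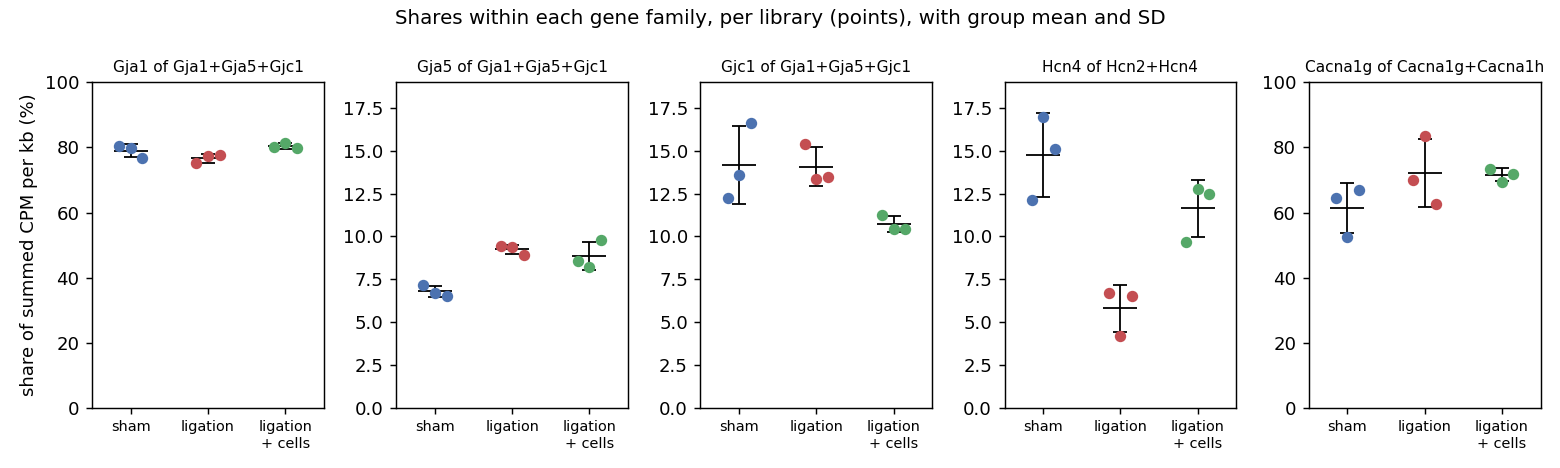
Share of each gene in the summed level per kilobase of the listed genes of its family (vertical axis, percent) in the 3 libraries of each group. Sums are of the 3 connexins Gja1, Gja5 and Gjc1, of Hcn2 and Hcn4, and of Cacna1g and Cacna1h. Points are libraries, and bars are group means with SD. Vertical scales start at 0 and are longer for Gja1 and Cacna1g. The Hcn4 share is lowest in ligation (4.19 to 6.68%), and the Gja5 share of all 6 libraries of the ligated groups lies above that of sham.

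Of 20 other connexin and pannexin genes 6 were tested, and 3 rose and none fell in ligation against sham, none passed in implanted against ligated hearts by edgeR, DESeq2 or limma-voom, and 2 rose in implanted hearts against sham, with median log2 fold changes of 0.65, -0.27 and 0.29. Among all genes tested, 38.2%, 9.87% and 40.9% passed by edgeR in these comparisons. Gja4 alone of the 6 had an unadjusted edgeR p under 0.05 in implanted against ligated hearts. Another 6 (Gja10, Gjb6, Gjd2, Gjd4, Gje1 and Panx3) had no count in any library. Gja4, a connexin of arterial endothelium, stood at 33.5 ± 4.72 CPM in sham, 41.7 ± 3.89 CPM in ligation and 35.9 ± 3.43 CPM in implanted hearts, and rose after ligation (log2 fold change 0.32, SE 0.106, edgeR adjusted p = 0.0199). Gjb5, best known from skin, was at 1 to 4 counts per sham library (0.381 ± 0.233 CPM) and at 5.01 ± 1.05 CPM in ligation and 4.97 ± 1.02 CPM in implanted hearts (edgeR adjusted p = 1.38e-06 for ligation against sham).

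All 12 genes of the intercalated disc, where gap junctions sit beside the anchoring junctions of heart muscle, were tested. In ligation against sham 7 rose and 2 fell, in implanted against ligated hearts 3 rose and none fell, and in implanted hearts against sham 8 rose and 1 fell, with median log2 fold changes of 0.26, 0.11 and 0.37. For all genes tested, the shares that passed were 38.2%, 9.87% and 40.9%. Dsp, the desmosomal plaque gene, rose from 568 ± 9.55 CPM in sham to 1001 ± 31.7 CPM in ligation. Tjp1, whose product binds the tail of the Gja1 connexin, fell from 130.8 ± 3.59 to 109.6 ± 10.6 CPM. Vcl, the vinculin gene, was at 36.0 ± 5.81, 52.8 ± 6.20 and 67.5 ± 4.43 CPM in the 3 groups and rose in each step, although 25.5% of its exonic bases overlap Ap3m1 on the opposite strand. Jup, the plakoglobin gene, was lower in implanted hearts (262.6 ± 5.37 CPM) than in sham (301.3 ± 14.6 CPM).

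Of 14 genes that mark or specify the conduction system 11 were tested, and 3 rose and 1 fell in ligation against sham, 2 rose in implanted against ligated hearts, and 3 rose and 1 fell in implanted hearts against sham, with median log2 fold changes of 0.16, 0.03 and 0.03. Beside these counts, 38.2%, 9.87% and 40.9% of all genes tested passed. Tbx3, a repressor that keeps nodal tissue from turning into working muscle, fell from 49.5 ± 1.28 CPM in sham to 20.1 ± 2.21 CPM in ligation (log2 fold change -1.28, SE 0.095, edgeR adjusted p = 9.87e-10). It rose to 28.6 ± 1.76 CPM in implanted hearts (0.49, SE 0.0994, edgeR adjusted p = 0.0023), still below sham. The 3 groups did not overlap, the same order of groups as for Cacna1h. Shox2, a regulator of sinoatrial node development, stood at 1.33 ± 0.628, 1.55 ± 0.486 and 4.25 ± 0.626 CPM and rose from ligation to implanted hearts (log2 fold change 1.49, SE 0.362, edgeR adjusted p = 0.00996). Tbx18, a regulator of sinoatrial and epicardial tissue, rose from 6.34 ± 1.39 CPM in sham to 10.4 ± 0.946 CPM in ligation.

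Compared per kilobase of exon, the order of the 9 genes was led by Gja1 in every group, at 34.7 ± 0.92 CPM per kilobase in sham, 42.5 ± 1.85 in ligation and 49.98 ± 0.646 in implanted hearts. In sham it was followed by Scn7a at 7.87, Hcn2 at 6.78, Gjc1 at 6.24, Scn4b at 5.82, Gja5 at 2.98, Cacna1g at 1.49, Hcn4 at 1.17 and Cacna1h at 0.940 CPM per kilobase. The ranges of Hcn2 and Gjc1, of Gjc1 and Scn4b, of Cacna1g and Hcn4, and of Hcn4 and Cacna1h overlapped, so these neighbours are not ordered by the data. In ligation Hcn2 moved up to follow Gja1 at 9.43 CPM per kilobase, ahead of Scn7a at 7.94, Gjc1 at 7.82, Scn4b at 5.28, Gja5 at 5.13, Cacna1g at 0.947, Hcn4 at 0.584 and Cacna1h at 0.350, where Scn7a and Gjc1, Scn4b and Gja5, and Hcn4 and Cacna1h overlapped. In implanted hearts Scn4b followed Gja1 at 8.57 CPM per kilobase, ahead of Scn7a at 7.78, Hcn2 at 7.24, Gjc1 at 6.66, Gja5 at 5.51, Cacna1g at 1.37, Hcn4 at 0.947 and Cacna1h at 0.545, and only Scn7a and Hcn2, and Hcn2 and Gjc1, overlapped.

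Each gene was also expressed as a log2 ratio to the summed cardiomyocyte markers in the same library. That sum was lower in both ligated groups than in sham and is carried by its most abundant genes, while the 8 markers went both ways: 2 were higher and 4 lower in ligation than in sham, with a median log2 fold change of -0.09. Against sham, ligation moved this ratio by 1.04 for Gja5, 0.74 for Hcn2, 0.59 for Gjc1, 0.55 for Gja1, 0.27 for Scn7a, -0.77 for Hcn4 and -1.19 for Cacna1h, with groups that did not overlap (exact two-sided permutation p = 0.1 for each). For Scn4b it moved by 0.13 (exact permutation p = 0.3) and for Cacna1g by -0.42 (exact permutation p = 0.2). From ligation to implanted hearts it moved by 0.79 for Scn4b, 0.82 for Hcn4, 0.65 for Cacna1g, 0.76 for Cacna1h, 0.32 for Gja1 and -0.30 for Hcn2 (exact permutation p = 0.1 for each), and by 0.06 for Scn7a, 0.19 for Gja5 and -0.14 for Gjc1 (exact permutation p = 0.6, 0.2 and 0.3). Against sham the implanted hearts differed most in Gja5 (1.23), Scn4b (0.91) and Gja1 (0.87), and Hcn4 differed by 0.05 (exact permutation p = 0.8). These 27 tests allow no p under 0.1. Scn7a, which passed no test in CPM, was higher relative to the markers in both ligated groups, where the marker sum was lower. Its own level was 57.8, 58.3 and 57.1 CPM in sham, ligation and implanted hearts.

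Genes with the pattern most like each of the 8 changed genes were sought among 11143 tested genes with a mean of at least 5 CPM, as the smallest root-mean-square difference of centred log2 CPM over the 9 libraries. For Scn4b these were Myot (0.084), a sarcomeric Z-disc gene, Kcnj5 (0.106), which encodes an inward rectifier potassium channel subunit of atrial muscle, and Apold1 (0.107), where the median gene differed by 0.371. Kcnj5 stood at 42.5 ± 3.47 CPM in sham, 40.7 ± 2.51 CPM in ligation and 58.6 ± 1.96 CPM in implanted hearts. For Hcn2 they were Lsp1 (0.0814), Phka2 (0.0854) and Aoc3 (0.0891), and for Hcn4 they were Fign (0.183), Meox2 (0.238) and Inka2 (0.246), with medians over genes of 0.297 and 0.534. For Gja1 the nearest were 2310002L09Rik (0.0334), Pank3 (0.0384) and Vldlr (0.0388), and for Gja5 they were Cyld (0.074), Lmod2 (0.0782), a sarcomeric thin-filament gene, and Prkar1a (0.0805), a regulatory subunit of protein kinase A, with medians of 0.285 and 0.438. Lmod2 stood at 383 ± 16.6 CPM in sham, 638 ± 25.2 CPM in ligation and 697 ± 7.17 CPM in implanted hearts. For Gjc1 the nearest were Naa60 (0.0859), Rhbdd1 (0.0946) and Snx5 (0.0973). For Cacna1g they were Hhex (0.12), Gtpbp10 (0.151) and Pcf11 (0.163), and for Cacna1h Sorcs2 (0.239), Acot2 (0.271) and Adam22 (0.272). The scarce genes Hcn4 and Cacna1h have larger differences even from their nearest genes, and counting error enters these distances.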

How the data were processed

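RNA was extracted with TRIzol and made into libraries with a NEBNext Ultra kit, per the labels' protocols. The deposited files hold whole-number read counts per Ensembl gene for 9 libraries, with closing lines in the form that htseq-count writes. The submitters' processing notes name mm10, and the aligner, annotation release and strand setting are not given in the sources used here. Of all reads in the files, 4.1 to 4.9% were in no gene and 8.1 to 8.7% were ambiguous, and neither entered library sizes. Symbols, exon lengths and coordinates came from the GENCODE annotation of GRCm38, and 53274 of 53465 genes had a symbol.

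Counts were fitted with edgeR 4.0.16 (TMM scaling, filterByExpr, quasi-likelihood test, 1 model over 9 libraries with 6 residual degrees of freedom), and p-values were adjusted by Benjamini-Hochberg over 13825 genes. Shares and ratios were compared by exact permutation. The scripts were tested on simulated data. Libraries sharing a replicate number did not deviate together (correlations from -0.121 to 0.133), so the number was not used as a pairing.

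The 9 genes and all lists were chosen with earlier results of these data known. From each list the text names, per comparison, the gene with the largest rise and the largest fall past 0.05 whose ranges do not overlap. It also names Gja4, Cacna1c and Tbx3 whatever their values, and, for each of the 9 genes that passed a test, the 3 genes nearest in pattern. Some genes that the rule names are not reported here. Motif windows came from RefSeq promoters of GRCm38.p6. Alternatives were other scalings and filters, DESeq2 1.42.0, limma-voom (limma 3.58.1), fits of 2 groups, a fold threshold, a replicate block and each library left out. Summing libraries that share a name in their files was added after seeing the data.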

Additional observations from a re-analysis of the deposited data

How the results depend on the processing

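Over all alternatives the members kept their direction and their side of the threshold in 162, 169 and 173 of 180 values for ligation against sham, implanted against ligated hearts and implanted hearts against sham. Requiring a log2 fold change of at least 1 as well left 2, 0 and 0 of the 9 genes (979, 314 and 1032 of all genes), where an adjusted p alone gave 7, 3 and 4 by edgeR. Leaving out 1 library gave 6 to 7, 2 to 3 and 3 to 4 genes. The replicate numbers are shared in name only, and fitting them as a replicate block gave 6, 3 and 4 genes, losing Gjc1 in ligation against sham (0.31, adjusted p = 0.0575) and no other call. Scaling by library totals alone turned Scn4b in ligation against sham to 0.040, Scn7a in implanted hearts against sham to 0.143 and Cacna1g in the latter to 0.0381. Summing libraries that share a name, chosen after seeing the data, gave 6, 4 and 4 genes and turned Scn7a in ligation against sham to -0.00988, lost Gjc1 there (adjusted p = 0.124) and added Cacna1g in implanted against ligated hearts (0.55, adjusted p = 0.0351). Leaving out 1 library, the log2 fold change of Scn7a ranged from -0.068 to 0.063, -0.079 to 0.036 and -0.076 to 0.029 in the 3 comparisons, and that of Gjc1 in implanted hearts against sham from -0.0034 to 0.25. The Gjc1 share of the 3 connexins in ligation minus sham was -0.10 percentage points. It turned to 0.025 from raw counts and ranged from -1.06 to 1.14 without 1 library. The Cacna1g share in implanted minus ligated hearts ranged from -5.21 to 5.18 percentage points. With the median over the markers in place of their sum, the ratio to cardiomyocyte markers turned to -0.064 for Scn4b in ligation against sham and to -0.084 for Hcn4 in implanted hearts against sham, and the latter ranged from -0.11 to 0.13 without 1 library. The cause of these changes was not tested. Depth limits Hcn4 and Cacna1h most, at 16 to 68 counts per library.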
